A study of Mus musculus with 4 samples.

Results

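Accessible chromatin was described around 6 genes of the cartilage programme, Sox9, Sox5, Sox6, Runx2, Runx3 and Acan, in mouse forelimb buds at E9.5 and E10.5. A region was assigned to one of these genes when the protein-coding transcription start nearest to its centre belonged to that gene, when a start of that gene was no farther than 2.5 kb from that centre, or when it lay in the gene desert around Sox9 on chromosome 11. By this rule 104 of the 42613 E9.5 regions and 106 of the 46765 E10.5 regions belonged to the 6 genes. All embryos were wild type and of the outbred strain NMRI. The samples called E9.5, for which the protocol gives E9.75, were forelimb buds with the adjoining trunk, and the samples called E10.5 were forelimb buds with no trunk named, although 1 of their labels also lists hindlimb buds. There were 2 biological replicates per stage, each made from the forelimb pair of 1 embryo. ATAC-seq, in which a transposase inserts sequencing adapters into open chromatin, was read out as 1 list of regions per stage that the authors had combined from both replicates. No difference between the stages therefore has a replicate error or a test, and stage and trunk tissue cannot be told apart.

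Limb cartilage forms from mesenchyme that condenses and turns on the transcription factor Sox9. Sox9 binds DNA through an HMG box and activates Sox5 and Sox6, which lack a transactivation domain and act with Sox9 on enhancers of cartilage matrix genes such as Acan. Runx2 and Runx3 are transcription factors with a Runt domain that act later, in chondrocyte maturation, and Runx2 is also required for bone formation. Sox9 is known for long-range regulatory sequence spread over the gene-poor interval around it.

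The samples were checked through regions within 2.5 kb of the starts of marker genes. All 8 limb mesenchyme markers examined, among them Prrx1, Tbx5 and Fgf10, had such a region at both stages. That of Tbx5 was weak, at percentile 4.11 in the E9.5 list and 1.37 in the E10.5 list. Of all 22380 protein-coding genes, 13728 had such a region in both lists, so its presence does not by itself identify a tissue. Of 13 trunk markers, 12 had one at both stages and Sox10, a neural crest gene, had one at neither. Regions present in a single stage, called stage-specific below, made up 40.8% of the 98 regions of the trunk markers at E9.5 and 29.9% of their 87 regions at E10.5. In the limb mesenchyme markers the order was the opposite, 17.2% of 58 regions and 44.3% of 88 regions. In the whole lists the shares were 29.9% and 35.0%. These pooled shares did not hold for each marker. Pax1, Pax9 and Meox2 among the trunk markers and Tbx5, Lhx2 and Msx1 among the limb mesenchyme markers had the reverse order. At E10.5, Fgf10 with 15 of 19 regions and Hand2 with 11 of 19 gave many of the stage-specific limb mesenchyme regions. The part of trunk tissue in the values below was not tested. Of 4 limb ectoderm markers, 1 had a promoter region at both stages, Fgf8 and Krt18 had one at E9.5 alone and Trp63 had one at neither, and of 5 blood and vessel markers 2 had one at both stages. Of 4 chondrocyte genes, Col2a1 and Hapln1 had a promoter region at both stages, Acan had one at E9.5, and Matn1 had one at neither.

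An overlap of 1 bp or more with the list of the other stage made a region shared, and any other region is called stage-specific, which does not show that the site was closed at the other stage. In the whole E9.5 list 29.9% of regions were stage-specific, and in the whole E10.5 list 35.0%. Near the 6 genes this held for 56 of 104 E9.5 regions, which is 53.8% (95% Wilson interval 44.3 to 63.1), and 58 of 106 E10.5 regions, which is 54.7% (45.2 to 63.9). These intervals cover counting error only and treat regions as independent. Because shared and stage-specific regions of the lists differ in score, GC content and distance from starts, each share was set beside that of list regions in the same score decile, GC quintile and promoter or distal class. Such like regions were stage-specific in 35.6% of cases in the E9.5 list and in 50.7% in the E10.5 list. The E9.5 share of the 6 genes thus lay above that of like regions, and the interval of the E10.5 share included that of like regions. Distance was matched only as promoter or distal class. At E9.5 the distal regions of the 6 genes lay at a median of 232 kb from a start of their gene. All distal regions of that list lay at a median of 29.5 kb from the nearest start. The part of this distance in the difference was not tested.

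Sox9 carried the E9.5 difference. Of its 50 E9.5 regions, 35 were stage-specific, which is 70% (56.2 to 80.9) against 35.0% of like regions. These 50 regions lay at a median of 410 kb from a Sox9 start, and like regions were not matched for such distances. Without Sox9 the other 5 genes had 21 stage-specific regions among 54 at E9.5, which is 38.9% (27 to 52.2) against 36.1% of like regions. At E10.5 the 25 stage-specific regions among 40 of Sox9 made up 62.5% (47.0 to 75.8) against 56.3% of like regions.

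**Figure D1:**
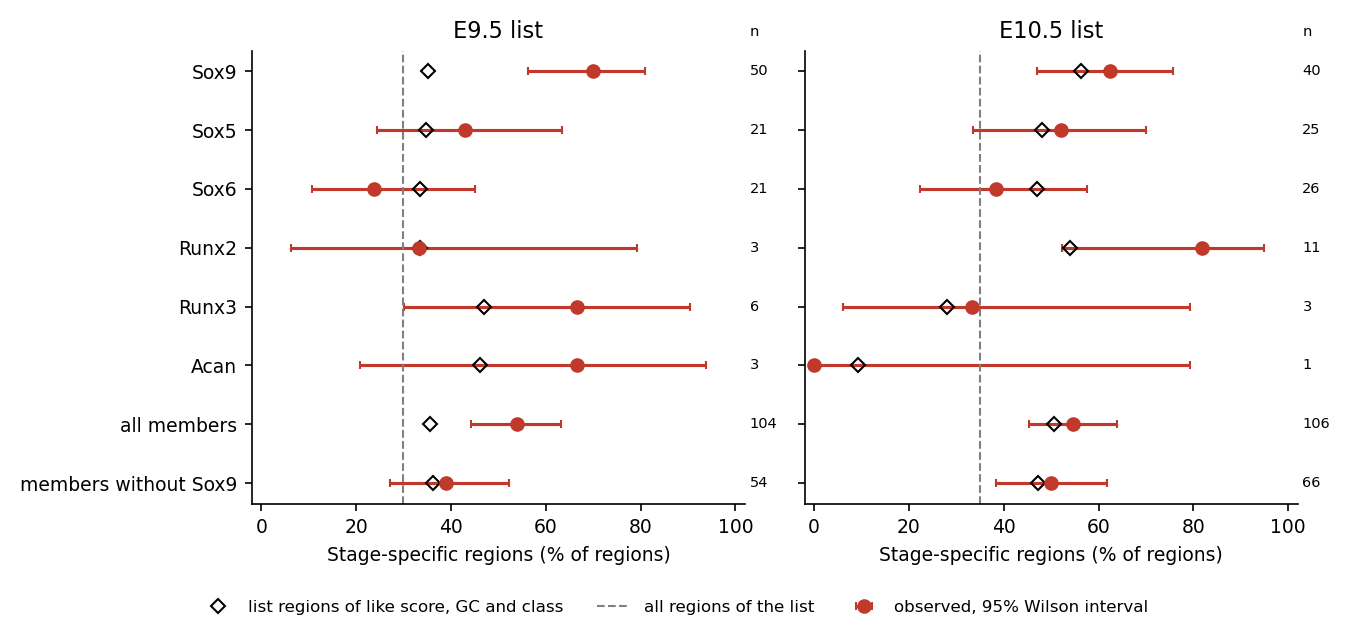
The stage-specific share of regions (%) is plotted for each gene, for all 6 genes and for the 5 genes other than Sox9, with the E9.5 list on the left, the E10.5 list on the right and the number of regions at the right of each row. Filled points with bars are the observed shares with 95% Wilson intervals, open diamonds are list regions of like score, GC content and class, and the dashed line is the whole list. Among the rows with more than 10 E9.5 regions, the interval lies above the diamond for Sox9 and for all 6 genes together.

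The numbers of regions differed by gene. From E9.5 to E10.5 the count was 50 and 40 for Sox9, 21 and 25 for Sox5, 21 and 26 for Sox6, 3 and 11 for Runx2, 6 and 3 for Runx3, and 3 and 1 for Acan. For Sox9, 20 and 9 of these regions were nearest to a start of Sox9 itself, and the other 30 and 31 lay in its gene desert nearer to the start of another gene. More regions were thus listed at the later stage for Sox5, Sox6 and Runx2, and fewer for Sox9, Runx3 and Acan. The E10.5 list as a whole was the longer one, and its distal regions numbered 31376 against 26277 in the E9.5 list. The counts of Sox5 and Sox6 rose in a proportion near that of these distal regions.

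**Figure D2:**
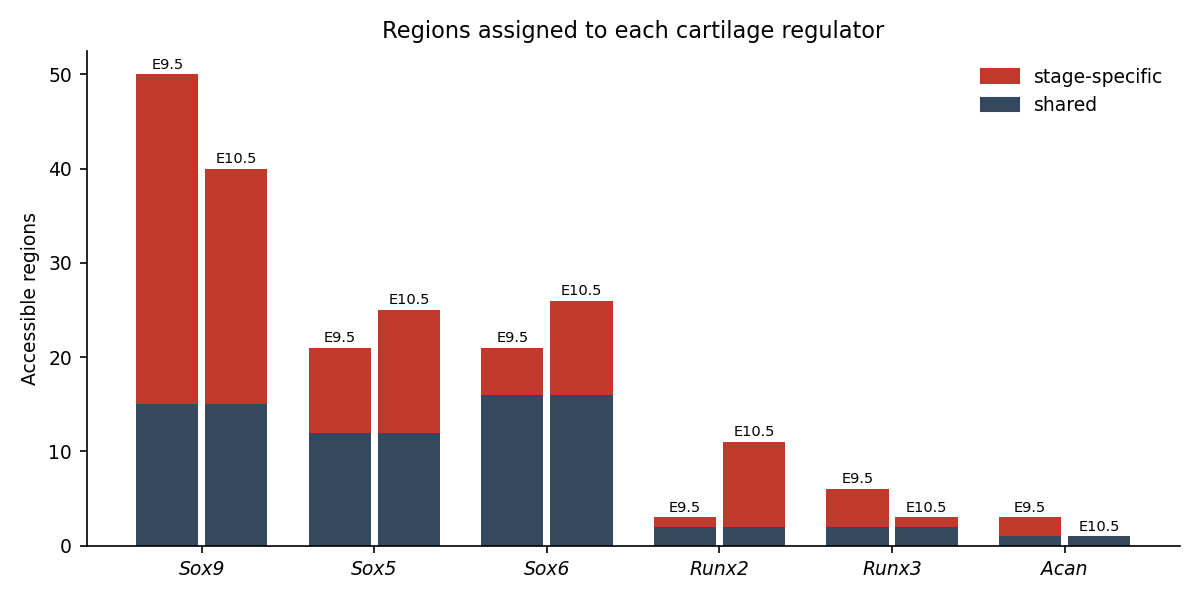
The stacked bars give the number of accessible regions assigned to each gene in the E9.5 list (left bar) and the E10.5 list (right bar), divided into shared and stage-specific regions. Sox9 has 35 stage-specific regions at E9.5 and 25 at E10.5, and Runx2 has 1 at E9.5 and 9 at E10.5.

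Sox9 itself (ENSMUSG00000000567.4, mm9 chr11:112643538-112649074, forward strand) had 1 promoter region in each list. At E9.5 this region, chr11:112642105-112647055, spanned 4951 bp and scored 2298.17, and at E10.5 it was chr11:112642263-112645603, spanned 3341 bp and scored 804. Scores are the authors' values of -log10 p from the peak caller MACS, multiplied by 10 and taken from the better replicate, and they grow with sequencing depth, which is unknown here. Scores of the 2 lists are therefore compared below only as percentiles within their own list. The Sox9 promoter region stood at percentile 94.9 and later at 81.9, and it covered the first annotated start in both lists. The 250 bases before that start are shown because both regions cover them. Capitals, here and in the sequences below, mark the SOX letters AACAAT and the RUNX letters TGTGGT on either strand.
Sox9 promoter, mm9 chr11:112643288-112643537, forward strand: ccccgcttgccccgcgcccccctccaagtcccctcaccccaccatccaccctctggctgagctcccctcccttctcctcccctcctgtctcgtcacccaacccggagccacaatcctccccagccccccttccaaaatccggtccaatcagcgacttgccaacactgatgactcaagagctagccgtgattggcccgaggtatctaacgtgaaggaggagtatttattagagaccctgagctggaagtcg
Neither set of letters occurred in this stretch, and 7.99% of the 250-base stretches before protein-coding starts held the SOX letters and 13.3% held the RUNX letters.

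The interval from the end of Kcnj2 to the start of Slc39a11, chr11:110938136-113106166, runs over 2168 kb and holds Sox9, the predicted gene Gm11678 and several non-coding genes. It contained 2.31 regions per 100 kb at E9.5 and 1.84 at E10.5, and the autosomes as a whole contained 1.69 and 1.85. Intergenic intervals of at least 500 kb are usually sparse, with a median over 600 such intervals of 0.447 regions per 100 kb at E9.5 and 0.905 at E10.5. As many regions per 100 kb as around Sox9 were found in 2.83% of these intervals at E9.5 and in 16.8% at E10.5. The interval around Sox9 is not a like unit, because it includes Sox9 with its promoter region and Gm11678. Upstream of Sox9 it held 1.70 regions per 100 kb in the E9.5 list and 1.82 in the E10.5 list. The downstream side, with 4.38 and 1.75, runs over 457 kb and so falls short of the 500 kb limit. The percentages refer to the whole interval and not to either side.

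The sides of Sox9 differed in the number of regions. Upstream, over 1705 kb, 29 regions were listed at E9.5 and 31 at E10.5, with 20 and 22 of them stage-specific, or 69.0% (50.8 to 82.7) against 40.5% of like regions and 71.0% (53.4 to 83.9) against 64.2%. Downstream, over 457 kb, 20 regions were listed at E9.5 and 8 at E10.5, which is 4.38 and 1.75 per 100 kb. Of the downstream regions 15 of 20 were stage-specific at E9.5, or 75% (53.1 to 88.8) against 28.9% of like regions, and 3 of 8 were stage-specific at E10.5, or 37.5% (13.7 to 69.4) against 32.9%. The E9.5 share was thus above that of like regions on both sides. The downstream side is described because of these values, so they are a description of it and not a test.

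The E9.5 regions downstream of Sox9 began near the gene. At 3.60 kb downstream of a start, chr11:112648990-112650296 overlapped the last bases of Sox9 and scored 242.07. It was followed by a group of 3 stage-specific regions at 26.6, 33.8 and 42.2 kb, with scores of 435.49, 414.59 and 452.16 and percentiles of 63.3, 62.3 and 64.1. No E10.5 region overlapped any of these 4. Farther out, at 100.9 kb, the stage-specific region chr11:112746378-112747564 scored 620.20 at percentile 70.5.

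A second cluster of E9.5 regions lay within the lincRNA gene 2610035D17Rik, chr11:112905209-113063152. It contained 8 E9.5 regions, 6 of them stage-specific, and 2 E10.5 regions, both shared. Upstream of the Sox9 start, the lincRNA gene BC006965 contained 3 E9.5 regions, all stage-specific, and 0 E10.5 regions. The highest-scoring E9.5-specific region around Sox9 lay beyond 2610035D17Rik, 437 kb downstream of Sox9 and nearer to Slc39a11, at chr11:113081879-113083548, with a score of 694.48 at percentile 72.8.

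The E10.5-specific regions downstream of Sox9 were 3, at 51.1, 141 and 229.8 kb. The one at 229.8 kb, chr11:112875158-112876547, scored 626.15 at percentile 76.6, which was the highest score of any stage-specific region of the 6 genes at E10.5. Upstream, chr11:111689365-111690629 at 954 kb scored 614.35 at percentile 76.3. It lay near a shared region at 938 kb whose score was 661.78 at percentile 71.8 in the E9.5 list and 591.70 at percentile 75.5 in the E10.5 list.

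**Figure D3:**
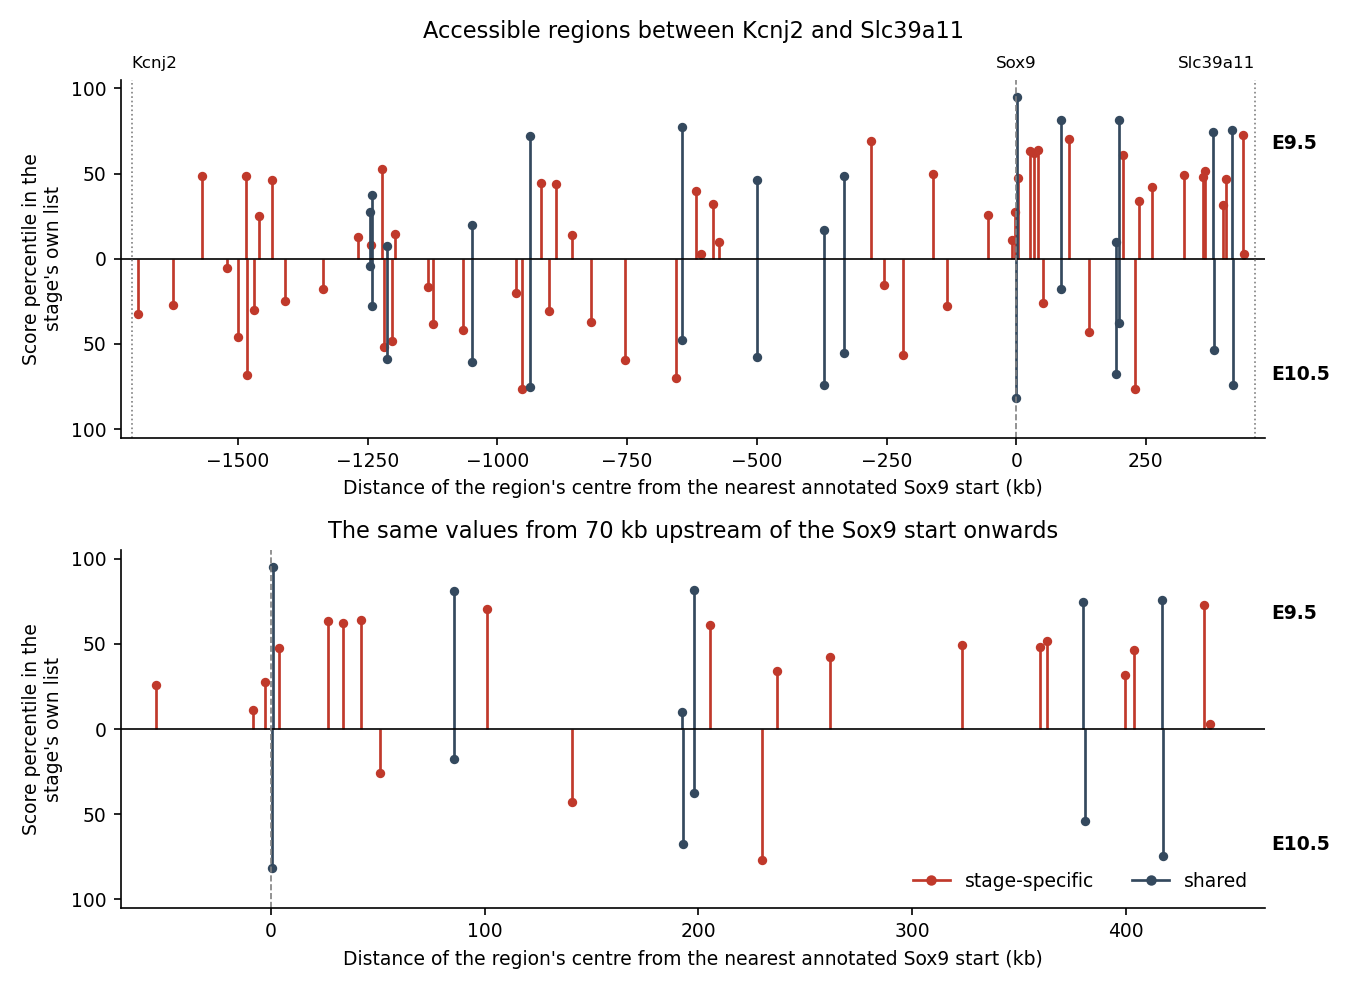
Each stem is 1 accessible region, placed by the distance of its centre from the nearest annotated Sox9 start (kb), with its height the score percentile within the list of its stage, E9.5 upward and E10.5 downward. Downstream of Sox9 the 20 E9.5 regions outnumber the 8 E10.5 regions, and upstream the counts are 29 and 31.

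Shared regions around Sox9 also moved within their lists. Of 5 shared regions whose nearest start was that of Sox9, 4 stood at a lower percentile at E10.5 and 1 stood higher. Of the 10 shared regions in the rest of the desert, 4 stood lower and 6 higher, so that over all 15 the numbers were 8 and 7, and 49.7% of all shared regions and 41.8% of the distal ones stood lower. The largest fall of any shared region of the 6 genes was at 85.7 kb downstream, chr11:112731003-112732508, from a score of 1069.94 at percentile 81.2 to a score of 120.05 at percentile 17.9. At 198 kb, chr11:112843179-112845013 went from 1085.26 at percentile 81.5, the highest distal score around Sox9 at E9.5, to 177.22 at percentile 37.6. Slightly nearer to the gene, a shared region at 192 kb, chr11:112837927-112839128, went the other way, from 105.91 at percentile 9.77 to 428.06 at percentile 67.5. Neighbouring regions thus moved in opposite directions.

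The middle 201 bases of 3 of these regions are shown because they had the highest score among E9.5-specific regions, the highest among E10.5-specific regions, and the largest fall.
Sox9 E9.5-specific region at 437 kb, mm9 chr11:113082613-113082813, forward strand: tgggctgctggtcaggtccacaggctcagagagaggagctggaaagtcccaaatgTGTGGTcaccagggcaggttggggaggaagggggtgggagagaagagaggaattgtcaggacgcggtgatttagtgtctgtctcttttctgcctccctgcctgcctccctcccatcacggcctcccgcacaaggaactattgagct
Sox9 E10.5-specific region at 229.8 kb, mm9 chr11:112875752-112875952, forward strand: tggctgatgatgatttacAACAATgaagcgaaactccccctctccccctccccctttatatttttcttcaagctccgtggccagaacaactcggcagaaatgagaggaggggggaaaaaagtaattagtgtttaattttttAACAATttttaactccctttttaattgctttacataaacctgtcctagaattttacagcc
Sox9 shared region at 85.7 kb, mm9 chr11:112731655-112731855, forward strand: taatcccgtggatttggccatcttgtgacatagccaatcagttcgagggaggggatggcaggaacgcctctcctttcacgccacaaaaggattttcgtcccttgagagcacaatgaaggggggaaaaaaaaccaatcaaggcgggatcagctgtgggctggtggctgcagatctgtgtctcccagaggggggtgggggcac
The E9.5-specific stretch held the RUNX letters 1 time and had a GC content of 58.2%. The E10.5-specific stretch held the SOX letters 2 times and had a GC content of 39.3%. Neither set of letters occurred in the shared stretch. In the middle 201 bases of all regions the SOX letters occurred in 6.83% at E9.5 and 7.74% at E10.5, and the RUNX letters in 11% and 12.3%.

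Sox5 (ENSMUSG00000041540.9, chr6:143776945-144730497, reverse strand) encodes a partner of Sox9 and has annotated starts in 4 groups. The outermost group had the region chr6:144729633-144731767 at E9.5, with a score of 802.04 at percentile 75.5, and the region chr6:144729716-144730642 at E10.5, with a score of 224.87 at percentile 47.4. The second group, more than 500 kb into the gene, had chr6:144157391-144159988 at E9.5, at 1016.65 and percentile 80.2, and chr6:144157286-144160117 at E10.5, at 1159.64 and percentile 88.7. The outermost promoter therefore ranked lower at the later stage and the internal one higher. The remaining groups had no region within 2.5 kb in either list.

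Of the Sox5 regions, 18 of 21 in the E9.5 list and 21 of 25 in the E10.5 list had their centre inside the gene. Stage-specific were 9 of 21 at E9.5, or 42.9% (24.5 to 63.5), and 13 of 25 at E10.5, or 52.0% (33.5 to 70), and both intervals included the share of like regions, 34.8% and 48.2%. The highest distal score at E9.5 belonged to a shared region 41.7 kb upstream of a start, 866.73 at percentile 77.1, which fell to 166.21 at percentile 34.6. At 55.2 kb a shared region scored 679.96 at percentile 72.3 and later 987.66 at percentile 85.8, the highest distal Sox5 score in the E10.5 list. A region at 104 kb upstream, chr6:144261318-144262100 at E9.5, was among the largest rises, from 124.86 at percentile 18.9 to 981.87 at percentile 85.7. By contrast the shared region at 245 kb, with scores of 527.39 and 476.63, stood at percentiles 67.4 and 70.2.

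The highest-scoring E9.5-specific region of Sox5, chr6:144103199-144104210, overlapped an exon 48.9 kb downstream of the nearest start and scored 511.08. Its E10.5 counterpart in rank, chr6:143945867-143947054, lay 50.8 kb upstream of the innermost start group and scored 369.18. At E10.5 the 4 stage-specific regions closest upstream of that innermost group, between 50.8 and 128 kb from it, scored from 130.55 to 369.18.

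Sox6 (ENSMUSG00000051910.7, chr7:122614858-123182258, reverse strand), the second partner of Sox9, had the lowest stage-specific share in both lists among the 3 genes with more than 20 regions in each. Stage-specific were 5 of 21 regions at E9.5, or 23.8% (10.6 to 45.1) against 33.4% of like regions, and 10 of 26 at E10.5, or 38.5% (22.4 to 57.5) against 47.1%. Of its 5 start groups, 3 had a promoter region, and these were present in both lists. The region chr7:123173515-123178741 at E9.5, shared with the neighbouring start of 1110006G14Rik, had the highest score of all regions of the 6 genes, 3008.12 at percentile 97.8, and its E10.5 counterpart scored 1392.83 at percentile 91.7. The outermost start had regions with scores of 691.72 at percentile 72.7 and 393.53 at percentile 65.2. The innermost start had the shared region chr7:122967743-122968850, with 346.71 at percentile 58.0 and 128.72 at percentile 21.7.

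Distal Sox6 regions moved in both directions. The largest rise of the 6 genes was at 414 kb downstream of the nearest start, beyond the end of the gene, where chr7:122553980-122554773 scored 103.24 at percentile 8.31 at E9.5 and its E10.5 counterpart scored 840.23 at percentile 82.7. A region at 179 kb, chr7:122788830-122790091, went from 295.15 at percentile 53.7 to 1187.60 at percentile 89.1, the highest distal score of the 6 genes at E10.5. At 323 kb the scores were 386.66 at percentile 60.7 and 841.29 at percentile 82.7. The opposite was seen at 256 kb, where chr7:122711537-122713054 scored 537.03 at percentile 67.8 at E9.5, the highest distal Sox6 score at that stage, and 93.24 at percentile 5.77 at E10.5. Another strong E9.5 region, at 409 kb, scored 484.67 and then 318.16, at percentiles 65.6 and 59.2.

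The highest-scoring stage-specific Sox6 regions lay in the same part of the gene. At E9.5 it was chr7:123009230-123010944, 20.5 kb upstream of the nearest start, with a score of 469.57. At E10.5 it was chr7:123033145-123034120, 44.0 kb upstream, with a score of 562.41. The middle of the region with the largest rise is shown.
Sox6 shared region at 414 kb, mm9 chr7:122554276-122554476, forward strand: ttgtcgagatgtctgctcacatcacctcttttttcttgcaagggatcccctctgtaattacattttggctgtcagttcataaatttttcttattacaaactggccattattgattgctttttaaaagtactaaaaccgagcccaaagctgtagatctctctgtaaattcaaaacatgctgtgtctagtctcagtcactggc
It held neither set of letters and had a GC content of 38.3%.

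**Figure D4:**
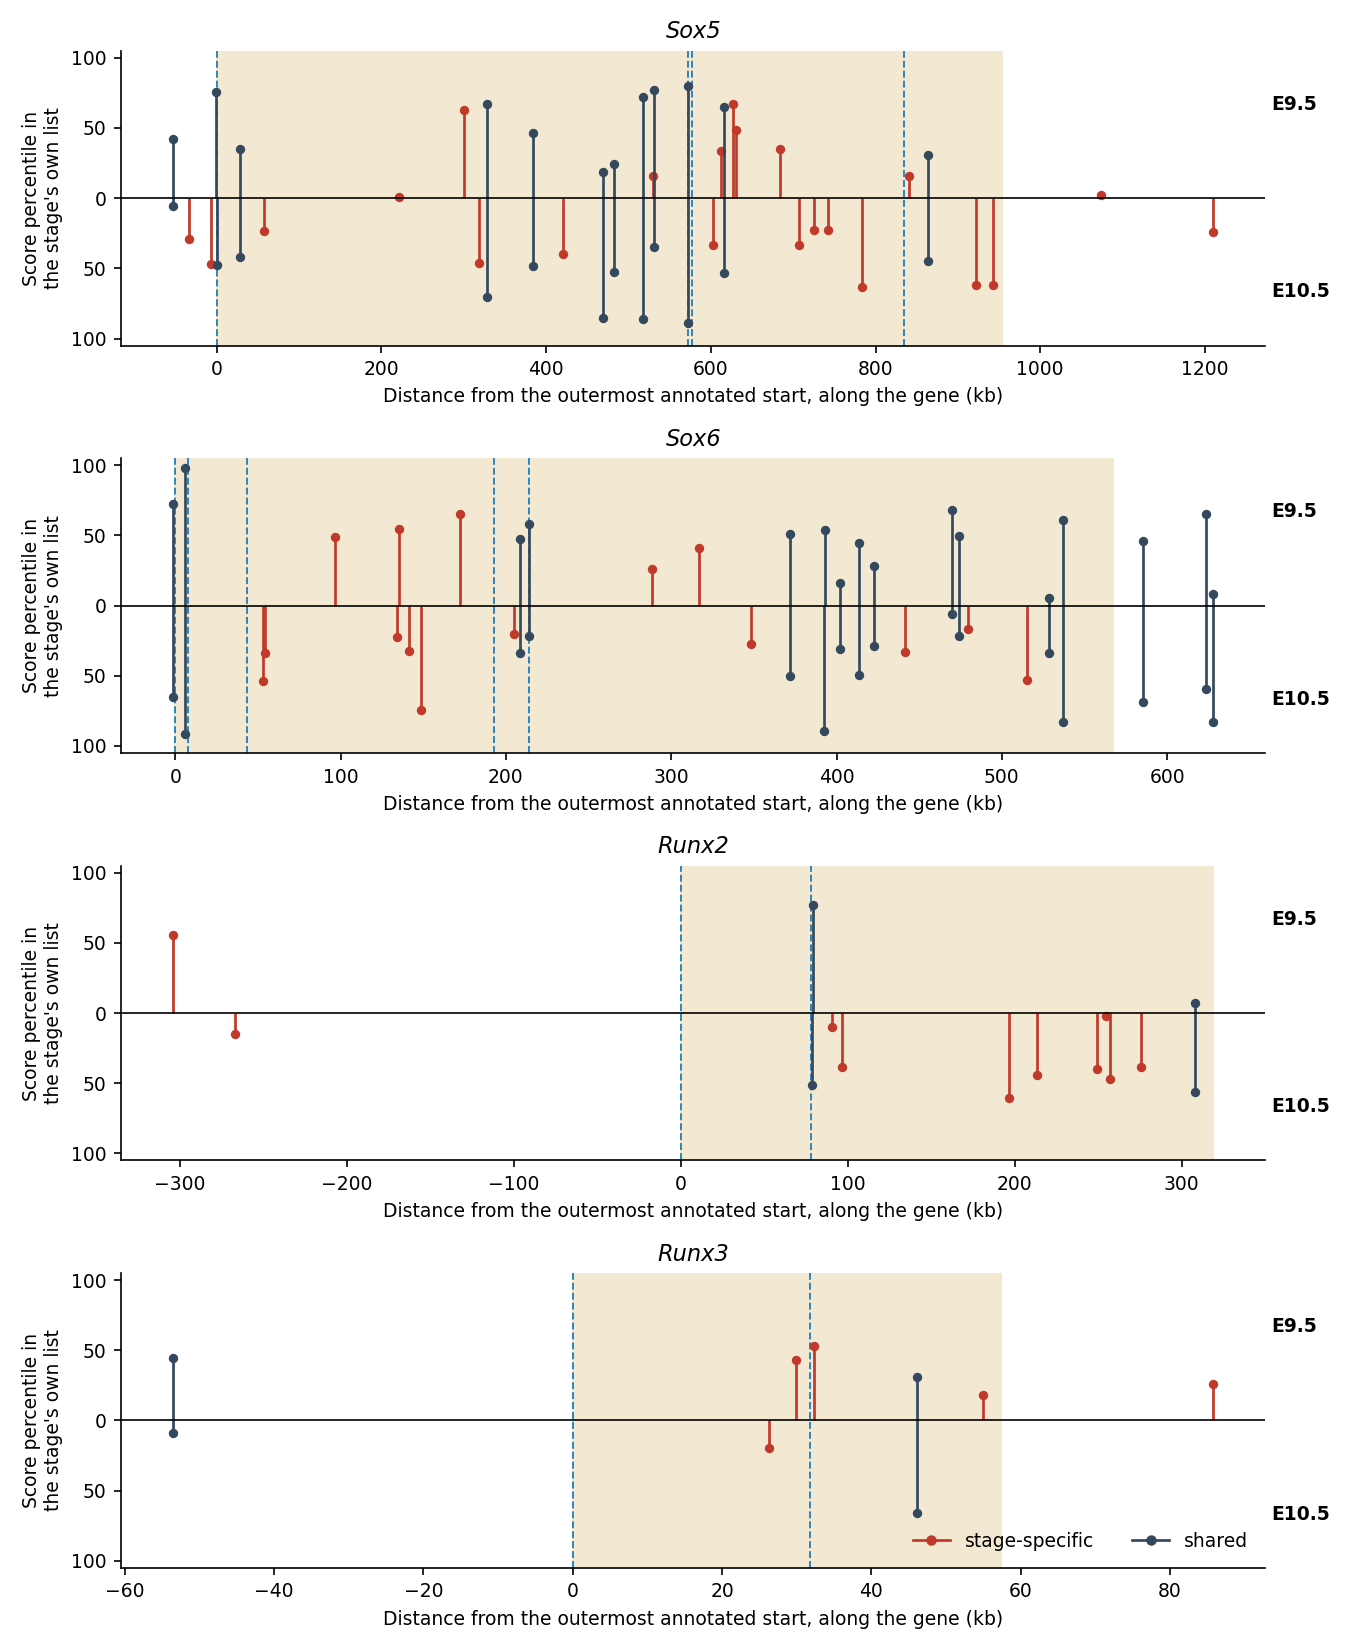
Each stem is 1 region of Sox5, Sox6, Runx2 or Runx3, placed by its distance along the gene from the outermost annotated start (kb), with its height the score percentile within the list of its stage, E9.5 upward and E10.5 downward. Shading marks the gene and dashed lines mark groups of annotated starts, and within Runx2 the 8 E10.5-specific regions have no E9.5 counterpart.

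Runx2 (ENSMUSG00000039153.9, chr17:44632936-44951746, reverse strand) is transcribed from a distal and a proximal promoter. The distal starts, at chr17:44951175-44951746, had no region within 2.5 kb at either stage. The proximal starts had chr17:44871299-44873855 at E9.5, with a score of 866.36 at percentile 77.1, and chr17:44872685-44873846 at E10.5, with 248.18 at percentile 51.0. Outside this promoter only 2 regions were listed at E9.5. They were a shared region near the end of the gene, 228 kb downstream of the proximal starts, and a stage-specific region 304 kb upstream of the distal starts that overlapped an exon of Supt3h, chr17:45255331-45256560, with a score of 315.11.

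At E10.5 the gene body of Runx2 held 10 regions, 8 of them stage-specific. With a ninth stage-specific region 267 kb upstream, 9 of 11 Runx2 regions were stage-specific at E10.5, or 81.8% (52.3 to 94.9) against 54.0% of like regions. This interval included the share of like regions. The scores of the 9 regions were moderate, from 76.90 to 331.66, and 1 of the 9 lay above the list median of 241.31. The highest, chr17:44754833-44756109, lay in an intron 116 kb downstream of the proximal starts at percentile 60.4, and the next stage-specific one, at 177 kb, scored 224.44. The shared region at 228 kb went from 101.23 at percentile 7.18 to 290.17 at percentile 56.4. Among the 863 genes with at least 10 E10.5 regions nearest their starts, 56 (6.49%) had a share of stage-specific regions at least as high as Runx2, and the median share of these genes was 54.5%. The middle of the highest-scoring region is shown.
Runx2 E10.5-specific region at 116 kb, mm9 chr17:44755371-44755571, forward strand: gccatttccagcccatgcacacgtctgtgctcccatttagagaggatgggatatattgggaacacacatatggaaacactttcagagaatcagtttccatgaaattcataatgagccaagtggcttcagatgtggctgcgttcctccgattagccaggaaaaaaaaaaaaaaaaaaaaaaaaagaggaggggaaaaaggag
Neither the SOX nor the RUNX letters occurred in it.

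The same ranking by gene was made at E9.5, where 544 genes had at least 10 regions nearest their starts and the median share of stage-specific regions was 40%. Counting only its 20 nearest regions, Sox9 had 15 stage-specific regions, or 75%, and 23 genes (4.23%) had a share at least as high. Sox5 lay in the middle, with 40.4% of genes as high at E9.5 and 54.8% at E10.5. Sox6 lay in the lower part, with 80.5% and 75% of genes as high.

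Runx3 (ENSMUSG00000070691.4, chr4:134676567-134733905, forward strand) also has a distal and a proximal promoter. The distal start, at position 134676567, had no region in either list. Near the proximal starts 2 regions were listed at E9.5, chr4:134707752-134709940 with a score of 286.62 at percentile 52.9 and chr4:134706040-134706943 with a score of 209.45 at percentile 42.8, and 0 were listed at E10.5. Over all genes with a promoter region at E9.5, 5.77% had none at E10.5, that is 840 of 14568. Farther from the starts, a shared region in the gene, 12.4 kb downstream of a start, went from 159.18 at percentile 31.1 to 405.44 at percentile 66.0, and a shared region 53.5 kb upstream of the distal start went from 222.10 at percentile 44.7 to 102.15 at percentile 8.95. The distal E9.5-specific regions scored 123.74 and 143.23, and the single E10.5-specific region scored 123.63.

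Acan (ENSMUSG00000030607.6, chr7:86198369-86259985, forward strand) encodes aggrecan, the main proteoglycan of cartilage. Its promoter region, chr7:86197474-86198868, was listed at E9.5 with a score of 244.39 at percentile 48.0, and the E10.5 list had no region there. A shared region 63.1 kb upstream scored 466.63 and later 439.29, at percentiles 64.8 and 68.1, so it kept its rank to within 3.31 points. The only other Acan region was E9.5-specific, lay in an intron 27.5 kb downstream of the start and scored 75.85, near the lower end of the list.

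The Runx3 and Acan promoters are shown because their E9.5 regions cover them and no E10.5 region does.
Runx3 proximal promoter, mm9 chr4:134708161-134708410, forward strand: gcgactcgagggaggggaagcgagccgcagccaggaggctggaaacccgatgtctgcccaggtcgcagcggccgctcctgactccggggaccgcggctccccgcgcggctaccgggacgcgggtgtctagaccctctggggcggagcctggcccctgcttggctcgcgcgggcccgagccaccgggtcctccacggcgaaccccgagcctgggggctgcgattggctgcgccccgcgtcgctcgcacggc
Acan promoter, mm9 chr7:86198119-86198368, forward strand: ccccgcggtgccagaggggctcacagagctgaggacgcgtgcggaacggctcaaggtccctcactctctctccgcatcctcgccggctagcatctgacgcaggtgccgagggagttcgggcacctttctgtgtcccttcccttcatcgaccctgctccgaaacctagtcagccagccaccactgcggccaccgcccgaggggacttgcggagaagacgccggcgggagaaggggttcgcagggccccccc
Their GC contents were 76.0% and 68.0%. Neither stretch held the SOX or the RUNX letters.

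Over the promoters of all 6 genes, 10 regions lay within 2.5 kb of a start at E9.5 and 7 at E10.5. All 7 of the E10.5 promoter regions overlapped an E9.5 region, and 3 of the 10 E9.5 promoter regions, those of Runx3 and Acan, were stage-specific. In the whole lists 13.1% of E9.5 and 5.31% of E10.5 promoter regions were stage-specific. Of the 7 shared promoter regions, 6 stood at a lower percentile at E10.5, and the internal Sox5 promoter stood higher. Of all shared promoter regions of the E9.5 list, 58.4% stood at a lower percentile at E10.5.

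Among all 48 shared regions of the 6 genes, 13 (27.1%) stood at least 20 percentile points lower at E10.5 and 13 (27.1%) at least 20 points higher. In the whole list of shared E9.5 regions these shares were 13.1% and 14.3%. Distal shared regions of the list moved more, 14.9% down and 24.5% up, against 24.4% and 31.7% of the 41 distal shared regions of the 6 genes. The differences ranged from -63.4 points for the Sox9 region at 85.7 kb to 74.4 points for the Sox6 region at 414 kb.

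**Figure D5:**
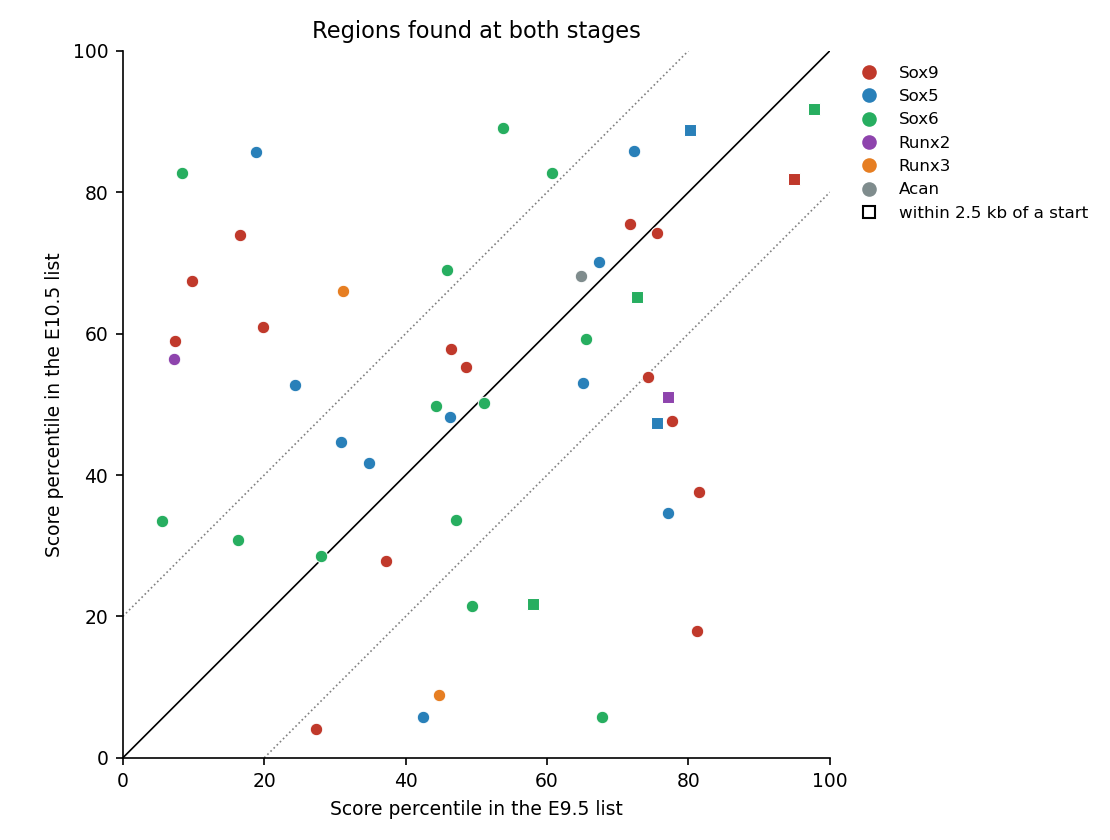
Each point is 1 region found at both stages, with its score percentile in the E9.5 list on the horizontal axis and in the E10.5 list on the vertical axis, coloured by gene, with squares for regions within 2.5 kb of a start. The solid line marks equal percentiles and the dotted lines a difference of 20 points, beyond which lie 13 regions on either side.

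Most stage-specific regions of the 6 genes were not narrowly missed overlaps. A region of the other list lay within 1.0 kb of 4 of the 56 E9.5-specific regions and of 1 of the 58 E10.5-specific regions, and the shares in the whole lists were 9.30% and 5.52%. Of the 56 and the 58, 15 and 14 scored above the median of their whole list. The 56 had a median score of 213.32, and all E9.5-specific regions one of 145.08. The 58 had a median score of 161.91, and all E10.5-specific regions one of 152.55.

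Short sequence motifs were counted on both strands in windows reaching 150 bp to either side of the centres of distal regions. The SOX letters AACAAT occurred in 16 of 94 distal regions of the 6 genes at E9.5, or 17% (10.8 to 25.9), and in 24 of 99 at E10.5, or 24.2% (16.9 to 33.5). In all distal regions they occurred in 13.4% and 14.7%, and in distal regions of like GC content in 15.1% and 15.9%. The interval at E10.5 thus lay above the list, and the one at E9.5 included it. The RUNX letters TGTGGT occurred in 25.5% and 23.2% of the regions, against 19% and 20.8% of the list, with intervals that included these shares. The HOX letters CAATAAA occurred in 9.57% (5.12 to 17.2) and 13.1% (7.84 to 21.2), against 4.67% and 7.32% of the list. In regions of like GC content they occurred in 5.46% and 7.95%. Both HOX intervals lay above the list and included the share in regions of like GC content. The SMAD letters GTCTG were common everywhere, with 61.7% and 61.6% against 57.8% and 55.4%. For the MEIS letters TGACAG, the AP-1 letters TGANTCA and the E boxes CATCTG and CATATG, the intervals included the share in the list at both stages. The intervals were not adjusted for the number of motifs and stages examined. A match in these windows is a description and does not show binding.

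Of all 22380 protein-coding genes, 13728 had a promoter region in both lists, 840 at E9.5 alone and 250 at E10.5 alone. Of 46 other genes of the cartilage programme, 38 had a promoter region in both lists, 2 at E9.5 alone, 0 at E10.5 alone, and 6 in neither. The pair with an E9.5 promoter region alone were Col11a2, a fibrillar collagen gene, with a score of 173.5 at percentile 34.9, and Ihh, a hedgehog ligand of growing cartilage, with a score of 253.85 at percentile 49.1. Those with no promoter region were Col10a1, Matn1, Epyc, Sox10, Sp7 and Gdf5. Stage-specific were 74 of 244 E9.5 regions of these genes, or 30.3%, and 116 of 291 E10.5 regions, or 39.9%. By group, the E9.5 shares were 33.3% for 15 matrix genes, 28.7% for 20 transcription factors and 33.3% for 11 signals and receptors, and the E10.5 shares were 46.6%, 36.5% and 44.2%. The most regions belonged to Mef2c, a factor of chondrocyte hypertrophy, with 23 at E9.5 and 30 at E10.5. Sox4, with 21 and 22 regions, was next at E9.5, and Trps1, with 12 and 24, was next at E10.5. At E9.5 the share was 53.8% for the 6 genes, 70% for Sox9 with its desert, and 38.9% for the 6 genes without Sox9. The 53.8% includes 30 desert regions nearer to another gene, and such a desert was added for Sox9 only. Without these 30 regions the share of the 6 genes was 48.6%. The 30.3% of the other cartilage genes lay near the 29.9% of the whole E9.5 list. No share of like regions was computed for these other genes.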

How the data were processed

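ATAC-seq was run on 4 wild-type samples, 2 per stage. Reads were mapped by the authors with Bowtie 1.1.0 (mm9). Regions were called per replicate by MACS 1.4, with no control library. The authors joined the replicates with MSPC (stringent p-value 1e-10, weak p-value 1e-06) into 1 deposited list per stage, whose score is 10 times -log10 of the better replicate's p-value. Read totals were not used, so depth is unknown and no interval beyond counting error can be given. From these lists, regions were assigned to 22380 protein-coding genes of GENCODE vM1, shares were given Wilson intervals, and scores were turned into percentiles within a list (Python 3.11.15, pandas 2.3.3, numpy 2.4.6, scipy 1.17.1, pysam 0.24.0, matplotlib 3.10.9). The mm9 coordinates fit the NCBIM37 sequence, with 0 regions past a chromosome end. The functions were tested on simulated intervals.

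The 6 genes, the marker lists and the other cartilage genes were chosen with earlier results of these data known. Regions are named where they lay within 2.5 kb of a start, were among the 3 highest-scoring distal regions or the highest-scoring stage-specific region of a gene in a list, or were among the 3 largest rises or falls in percentile. The regions named downstream of Sox9 at 3.60, 26.6, 33.8, 42.2 and 100.9 kb, those in lincRNA genes, and the other regions named outside this rule were chosen after their values were seen. The desert around Sox9 was taken from Kcnj2 to Slc39a11 and contains the predicted gene Gm11678.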

Additional observations from a re-analysis of the deposited data

How the results depend on the processing

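No paired analysis was possible because the replicates were merged into 1 list per stage, and leaving out a replicate was not run for the same reason. Near the 6 genes the E9.5-specific share was 39.5% of the 38 regions in the higher-scoring 50% of the list (whole list under the same limit 10.8%) and 38.9% without Sox9, against 53.8%. The E10.5-specific share was 33.3% of the 42 higher-scoring regions (whole list 18.1%), against 54.7%. Requiring a centre within 1 kb of a start left 6 of the 10 E9.5 promoter regions. The other 44 of 50 alternatives for the shares and totals stayed within the interval of the share or within 1.5 times the count. Downstream of Sox9 the E9.5-specific share lay between 63.6% and 85%. Counting a gap of up to 1 kb as shared gave 50% at E9.5 and 53.8% at E10.5 for the 6 genes. Starting the desert at Gm11678 gave 50.6% and 49.4%. These last 2 alternatives, and the downstream side as a section to recompute, were chosen after seeing the data. For single genes, 19 of 36 alternative counts of stage-specific regions moved by more than 1.5 times, mostly where the weaker 50% of regions was dropped. In that higher-scoring 50%, 1 of the 9 E10.5-specific regions of Runx2 was left. With both lists limited the count was 2, the second being the region at 228 kb that is shared in the full lists.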
